A study of Homo sapiens with 10 samples.

Results

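SESN1, SESN2 and SESN3, which encode the sestrins, and DDIT4, which encodes the protein also called REDD1, were followed in human osteosarcoma cells, in lines made from U2OS. The genes were chosen by symbol, and all 4 were found, each as 1 of the 25593 entries of the deposited expression files. Sestrins are stress-induced proteins that restrain mTORC1, the kinase complex that couples nutrients to cell growth. They do so by binding GATOR2, which frees GATOR1 to switch off the Rag GTPases, and by activating AMPK, the energy-sensing kinase. SESN2 is also a leucine sensor. DDIT4 restrains the same complex by another route, through the TSC complex and its target RHEB. SESN1 and SESN2 are known p53 targets, SESN2 and DDIT4 are also induced by ATF4, the transcription factor of the integrated stress response, SESN3 is known as a target of FOXO transcription factors, and DDIT4 is also a hypoxia gene.

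The study set a line labelled p53 KO against a control CRISPR line labelled p53 WT. Each was transfected for 96 h with an siRNA against SET, a histone chaperone that binds p53, or with a control siRNA. The groups were p53 KO with SET siRNA (n = 2), p53 KO with control siRNA (n = 2), p53 WT with SET siRNA (n = 3) and p53 WT with control siRNA (n = 3), all U2OS-derived and grown in the same medium with serum. The lines came from clone selection, so the p53 label and other differences between the 2 lines cannot be told apart. The labels number the libraries as biological replicates and say no more of their origin, so the p-values speak of the spread among the libraries of a group, which may be technical. In bulk RNA, fewer cells carrying a transcript and less transcript per cell cannot be told apart.

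The values are FPKM, fragments per kilobase of transcript and scaled to the size of the library, so levels of different genes can be set side by side. SET mRNA, the target of the siRNA, was 14.9 and 14.9 FPKM in the KO line with SET siRNA, against 158 and 169.7 with control siRNA. For WT cells it was 12.3, 13.3 and 12 FPKM with SET siRNA, against 121, 125 and 126 with control siRNA. A gene-level FPKM cannot show whether the CRISPR edit is there, and KO and WT below are the labels' names. Depth judged from the widths of the authors' intervals was 0.85 to 1.295 of the median library. Of 9 osteoblast markers, 5 (RUNX2, ALPL, SPP1, COL1A1 and SPARC) reached FPKM 1 in every library, and SP7, IBSP, BGLAP and COL1A2 did not. None of 6 blood and 5 endothelial markers reached FPKM 1 in any library, and 3 or 4 of 6 epithelial markers did. The summed osteoblast markers were 276 to 296 FPKM in the KO line with SET siRNA and 552 to 632 with control siRNA, and 326 to 363 and 682 to 732 in the WT line with SET and control siRNA. Their part in the results below was not tested.

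The stretches of reference sequence before the transcription starts printed here were chosen because the members differ in what the letters hold there. They are from RefSeq on GRCh38.p14, 5′ to 3′ on the gene's own strand, from the 250 bases before the start site, and cover start number 3 of the 3 annotated SESN1 starts, SESN2 and DDIT4. Capitals mark the match to the 10-base p53 motif in SESN1, and to ACGTG or GCGTG, the cores of the hypoxia response element, in DDIT4.
SESN1 start 3, chr6:109008989-109009238, minus strand: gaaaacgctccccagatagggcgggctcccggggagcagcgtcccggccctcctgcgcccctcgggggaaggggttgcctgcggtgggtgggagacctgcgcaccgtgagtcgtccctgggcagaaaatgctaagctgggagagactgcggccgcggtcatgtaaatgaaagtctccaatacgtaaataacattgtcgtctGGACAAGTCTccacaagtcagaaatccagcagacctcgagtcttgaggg
SESN2, chr1:28259268-28259517, plus strand: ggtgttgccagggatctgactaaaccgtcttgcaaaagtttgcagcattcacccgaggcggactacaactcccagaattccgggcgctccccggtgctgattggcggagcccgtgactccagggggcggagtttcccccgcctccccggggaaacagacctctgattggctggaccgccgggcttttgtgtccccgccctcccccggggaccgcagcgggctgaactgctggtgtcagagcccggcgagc
DDIT4, chr10:72273674-72273919, plus strand: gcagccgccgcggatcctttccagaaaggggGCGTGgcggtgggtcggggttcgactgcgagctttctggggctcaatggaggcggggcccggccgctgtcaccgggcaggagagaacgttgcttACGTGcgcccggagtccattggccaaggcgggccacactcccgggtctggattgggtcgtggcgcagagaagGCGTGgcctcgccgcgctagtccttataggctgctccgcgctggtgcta

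Both strands of the 250 bases before each start were searched, and the matches in a window did not overlap. The last bases of the DDIT4 window lie in an exon in GENCODE 29 and were left off. The SESN1 match began 49 bases before start 3, and the next 10 bases toward the start fit 7 of the 10 letters of the same motif. The p53 motif occurred in 5.57% of the 35116 RefSeq windows of that length. The other 2 SESN1 windows had no p53 motif, though that of start 2 had GCGTG once, 82 bases before it, and the SESN2 and SESN3 windows held none of the motifs searched. The SESN3 window lies in annotated exons and is not printed. DDIT4 had ACGTG once, 125 bases before the start, and GCGTG at 219 and 53 bases, motifs found in 18.5% and 32.2% of all windows. TGATGNAA, the core of the element that C/EBP and ATF proteins share, is in 3.14% of windows and in none of the members' windows. A match is a description of letters, and no match says nothing of a factor's binding elsewhere in the gene. The deposited entry for SESN1 sums transcripts from 3 start sites, so the values below do not say which start was used.

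SESN1, a sestrin known as a p53 target, rose with SET siRNA in the WT line and had the widest gap between the lines of the members. In the files it spans chromosome 6, 109307640 to 109415708, on a build not given in the sources used here. Its levels were 2.55 and 2.94 FPKM in the KO line with SET siRNA and 3.48 and 3.55 with control siRNA. They were 39.7, 38.2 and 34.7 FPKM in the WT line with SET siRNA and 11.3, 12 and 12.1 with control siRNA. The 4 groups were separate, in the order WT with SET siRNA, WT with control siRNA, KO with control siRNA and KO with SET siRNA. In the pairs of groups compared, libraries did not overlap for 63.1% to 70.2% of tested genes. The share of genes with all 4 groups apart was not computed. In the WT line SET siRNA gave 37.6 ± 2.57 against 11.8 ± 0.45 FPKM (SD, n = 3 each), 3.18-fold.

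On the log2(FPKM + 1) scale, which understates the change of low genes, SESN1 rose by 1.59 ± 0.0638 (SE) in the WT line with SET siRNA (limma adjusted p = 2.99e-07). In the KO line the change was -0.27 ± 0.0781 (adjusted p = 0.0227), from 2.74 ± 0.278 against 3.52 ± 0.0434 FPKM (SD, n = 2 each). The adjusted p of that small fall was 0.0752 when KO control library 2 was left out and 0.155 when KO SET siRNA library 1 was, so either ends the call. The difference between the responses, WT minus KO, was 1.86 (95% interval 1.63 to 2.09, adjusted p = 4.9e-05). SESN1 was 13.7-fold lower in the KO than in the WT line with SET siRNA (log2 difference -3.36, adjusted p = 3.65e-09). With control siRNA it was 3.36-fold lower in the KO line (-1.5, adjusted p = 8.57e-07).

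SESN2, the leucine-sensing sestrin, rose with SET siRNA in both lines. It spans chromosome 1, 28585963 to 28609002. It was at 31.6 and 31.8 FPKM in the KO line with SET siRNA, against 15.0 and 13.9 with control siRNA. WT cells were at 71.9, 70.3 and 74.6 FPKM with SET siRNA, against 21.7, 20.2 and 19.5 with control siRNA. No 2 groups overlapped, and WT cells with SET siRNA were highest and KO cells with control siRNA lowest. As given for SESN1, pairs of groups were apart for most tested genes. The KO cells with SET siRNA lay above the WT cells with control siRNA, a pair that was not tested.

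SESN2 rose 3.53-fold in the WT line (log2 change 1.77 ± 0.0504 SE, limma adjusted p = 7.34e-08) and 2.20-fold in the KO line (1.08 ± 0.0617, adjusted p = 6.31e-06). The response was larger in the WT line by 0.69 on the log2 scale (95% interval 0.51 to 0.87, adjusted p = 0.000987). The KO line was lower under both siRNAs. With SET siRNA the means were 31.7 ± 0.159 FPKM in the KO line and 72.3 ± 2.15 in the WT line (log2 difference -1.16, adjusted p = 5.17e-07). With control siRNA they were 14.4 ± 0.795 and 20.5 ± 1.14 FPKM (SD, n = 2 KO and 3 WT; -0.48, adjusted p = 0.00018).

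SESN3, known as a FOXO target, moved the other way. It spans chromosome 11, 94906133 to 94964246. Its levels were 18 and 17.1 FPKM in the KO line with SET siRNA, against 41.3 and 45.7 with control siRNA. In the WT line they were 16.8, 15.0 and 15.5 FPKM with SET siRNA, against 22.3, 24.6 and 21.0 with control siRNA. KO cells with control siRNA stood highest, 1.92-fold above WT cells with control siRNA. The 2 groups with SET siRNA were neighbours, at 17.5 ± 0.622 (KO, n = 2) and 15.8 ± 0.898 FPKM (WT, n = 3).

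SESN3 fell by 1.26 on the log2 scale in the KO line with SET siRNA (SE 0.0832, limma adjusted p = 1.24e-05), to 0.403 of the level with control siRNA. In the WT line it fell by 0.49 (SE 0.068, adjusted p = 0.000269), to 0.697 of that level. The responses differed by 0.77, WT minus KO (95% interval 0.53 to 1.01, adjusted p = 0.00238), the positive sign marking a smaller fall in the WT line. With control siRNA the KO line was higher by 0.91 (adjusted p = 2.34e-05). With SET siRNA the difference between the lines was 0.15 (95% interval -0.03 to 0.32, adjusted p = 0.142) and did not pass the test, though the libraries did not overlap, as was so for 70.2% of tested genes.

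DDIT4, the TSC-dependent brake, was the most abundant of the members in every library, and in the fit of 4 group means it passed the test in none of the 5 comparisons. It spans chromosome 10, 74033677 to 74035797. Its levels were 99.4 and 95.7 FPKM in the KO line with SET siRNA and 126 and 109 with control siRNA. WT cells had 136, 111 and 115 FPKM with SET siRNA and 119.6, 82.6 and 85.6 with control siRNA. WT control library 1 overlapped the WT libraries with SET siRNA, and in all 4 groups the library numbered 1 was the highest.

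The DDIT4 change with SET siRNA was 0.34 on the log2 scale in the WT line (95% interval 0.03 to 0.65, limma adjusted p = 0.0581) and -0.26 in the KO line (-0.64 to 0.12, adjusted p = 0.249). The difference between the responses was 0.60 (0.12 to 1.09, adjusted p = 0.079). Between the lines, KO minus WT, it was -0.30 with SET siRNA (adjusted p = 0.136) and 0.30 with control siRNA (adjusted p = 0.127). Leaving out WT control library 1 gave a call in 4 of these comparisons. For KO minus WT with SET siRNA that library is in neither compared group, and only the shared estimate of the spread changed. Without it the WT change was 0.51 (adjusted p = 0.00265), the difference between responses 0.77 (0.0136), KO minus WT with control siRNA 0.47 (0.00845) and with SET siRNA -0.30 (0.0305). The interval in the WT line reaches 0.65, so the missed threshold does not show that DDIT4 was the same.

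**Figure D1:**
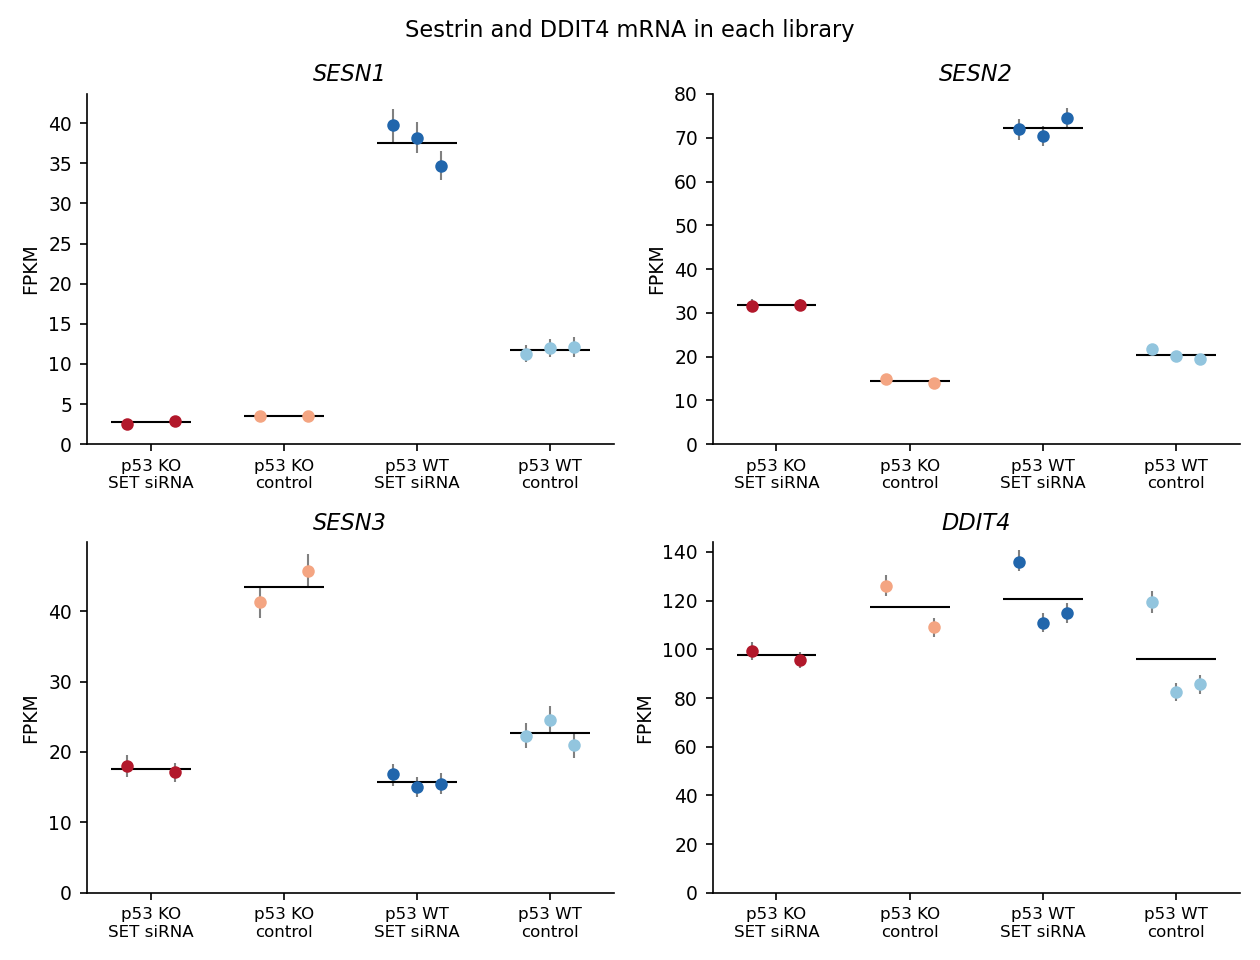
FPKM (linear axes from 0) of each member in each library, by group; points are libraries, grey bars the authors' FPKM intervals and black lines group means. SESN1 lies between 2.55 and 3.55 FPKM in the 4 KO libraries and at 34.7 or above in the 3 WT libraries with SET siRNA, while SESN3 is highest in the KO libraries with control siRNA and DDIT4 groups overlap in the WT line.

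Calls were common among all tested genes. In the WT response SESN1 and SESN2 were called higher and SESN3 lower, where 54.8% of the 14813 tested genes were called, 30.8% higher and 24% lower. In the KO response SESN2 was called higher and SESN1 and SESN3 lower, where 37.6% were called, 19.8% higher and 17.9% lower. The difference of responses was called for 3 of the 4 members, all positive, against 19.1% of genes, 10.5% positive and 8.6% negative. For KO against WT with SET siRNA, SESN1 and SESN2 were called lower, against 48.4% of genes, 23.6% higher and 24.8% lower. With control siRNA they were again called lower and SESN3 higher, against 47.9% of genes, 25.7% higher and 22.2% lower. Some of these shares rest on single libraries. The difference of responses was called for 2831 genes, against 4587 without KO control library 1, 1726 without KO control library 2, 1136 or 1465 without KO SET siRNA library 1 or 2, and 1822 or 1759 without WT SET siRNA library 1 or 2. The KO response was called for 5571 genes, against 3442 or 3683 without KO SET siRNA library 1 or 2. Libraries of the groups did not overlap for 64.3% of genes in the WT response, 67.5% in the KO response and 63.1% between the lines with control siRNA. By size, of all tested genes, 99.1% had a smaller absolute change than SESN1 and 99.4% than SESN2 in the WT response. In the KO response 98.2% had a smaller one than SESN2 and 98.8% than SESN3, against 64.3% for SESN1. For DDIT4 these shares were 67.7% in the WT and 62.5% in the KO response.

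**Figure D2:**
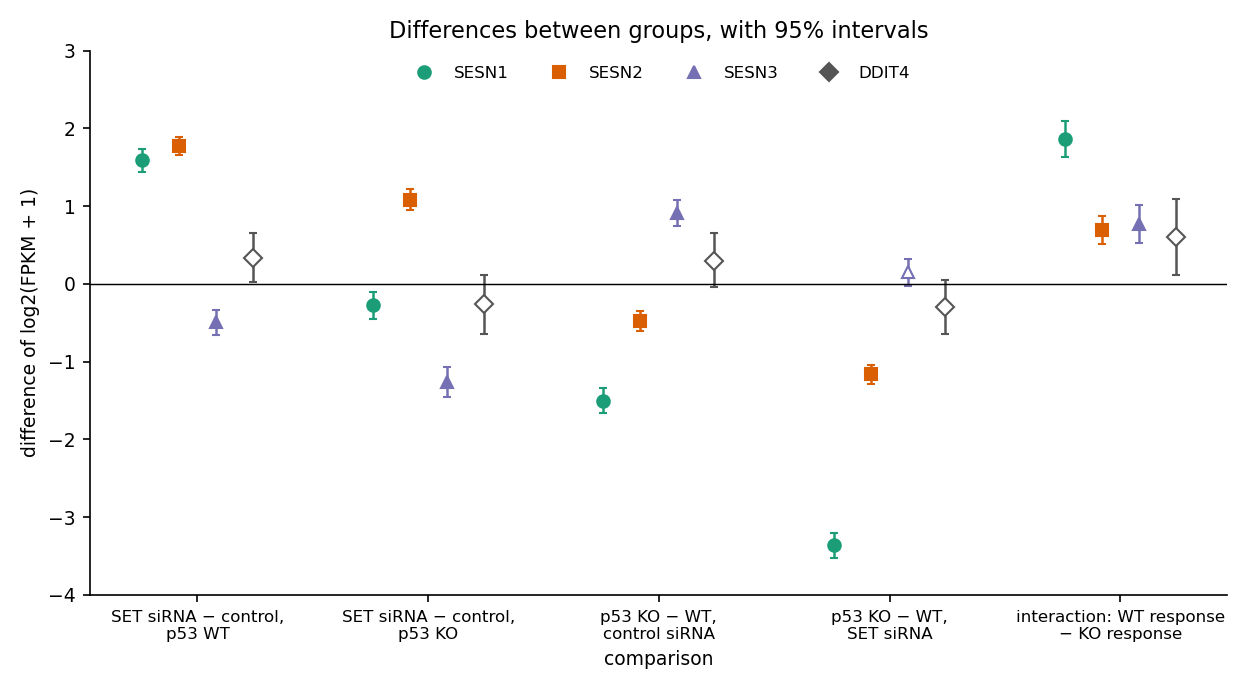
Difference of log2(FPKM + 1) for each member in 5 comparisons, with 95% intervals from limma; filled symbols passed an adjusted p below 0.05 and open ones did not. SESN2 is above 0 in both SET siRNA responses (1.77 and 1.08), SESN3 below 0 in both (-0.49 and -1.26), and SESN1 lies on either side (1.59 and -0.27).

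The summed level of the 3 sestrins is given as a description with no test. It was 52.1 and 51.8 FPKM in the KO line with SET siRNA, against 59.8 and 63.1 with control siRNA. WT cells had 128, 124 and 125 FPKM with SET siRNA, against 55.3, 56.8 and 52.6 with control siRNA. The WT libraries with SET siRNA stood alone, and the other 7 libraries lay within 51.8 to 63.1 FPKM. In the KO line SESN2 was higher and SESN3 lower with SET siRNA, and the sum was lower in both libraries.

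The make-up of that sum also differed between the groups. SESN2 was 61.0 ± 0.522% of it in the KO line with SET siRNA and 23.5 ± 2.20% with control siRNA (SD, n = 2 each). It was 57.5 ± 1.95% in the WT line with SET siRNA and 37.3 ± 1.87% with control siRNA (n = 3 each). SESN3 held 33.7 ± 1.08% in the KO line with SET siRNA and 70.8 ± 2.35% with control siRNA, and 12.5 ± 0.463% and 41.2 ± 1.82% in the WT line with SET and control siRNA. SESN1 made up 5.28 ± 0.554% and 5.73 ± 0.149% in the KO line, and 29.9 ± 1.81% and 21.5 ± 1.34% in the WT line, with SET and control siRNA in that order. The DDIT4 level was 1.88 ± 0.0438 and 1.92 ± 0.273 times the sestrin sum in the KO line, and 0.96 ± 0.0897 and 1.75 ± 0.37 times it in the WT line, in the same order.

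**Figure D3:**
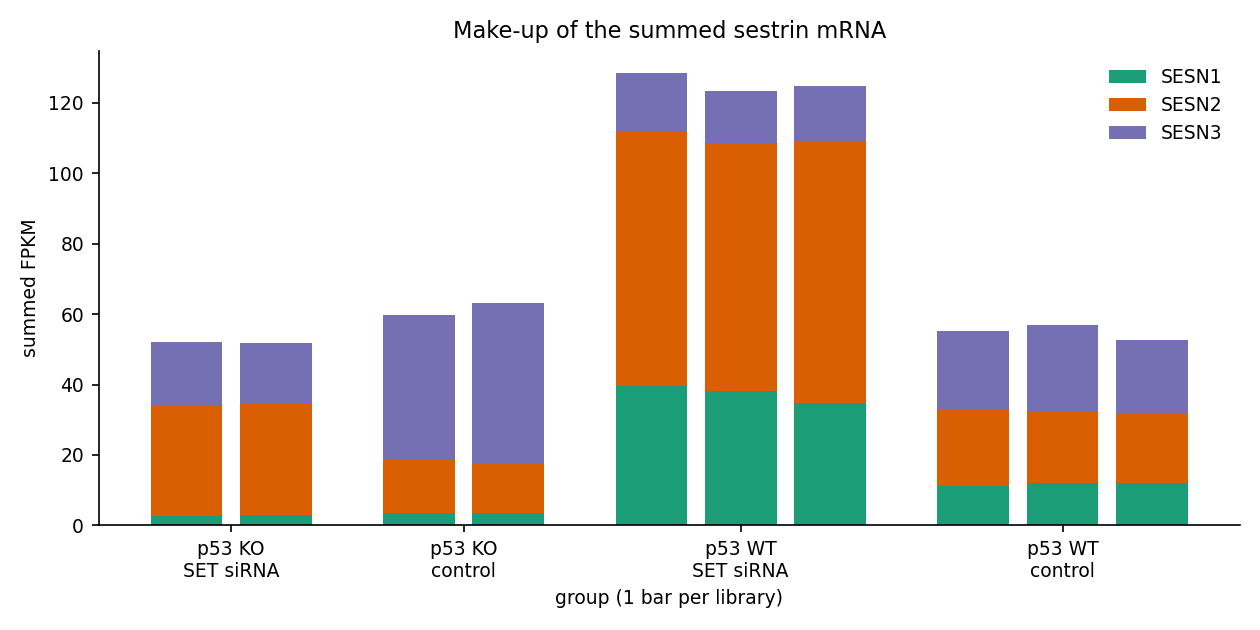
Summed FPKM of SESN1, SESN2 and SESN3 in each library (1 stacked bar per library, linear axis from 0), by group. The 3 WT libraries with SET siRNA reach 124 to 128 FPKM and the other 7 stay at 51.8 to 63.1, with SESN3 the largest part in KO cells with control siRNA and SESN2 the largest in both groups with SET siRNA.

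Each value rests on a limited number of fragments. The authors' intervals correspond to 122 to 186 fragments for SESN1 in the KO libraries and 435 to 1628 in the WT libraries, if an interval spans 2 SDs on each side. They correspond to 802 to 4218 fragments for SESN2, 453 to 1413 for SESN3 and 1890 to 3434 for DDIT4. The half-width of the interval reached 18.1% of the value for SESN1 and 4.6% for DDIT4. These are estimates that cover counting and read assignment, not the spread between cultures. No other entry of the files overlaps a member. GENCODE 29 places exons of an antisense gene over exons of SESN1 (AL390208.1), SESN3 (AP000787.1) and DDIT4 (DDIT4-AS1), and whether the counting used strand is not given in the sources used here, so such reads cannot be told apart from the members' own.

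The genes whose log2(FPKM + 1) over the 10 libraries was most like each member were taken from 10317 genes with a mean FPKM of at least 5. These correlations describe 10 libraries in 4 groups and carry no test. For SESN1 they were PVRL4 (r = 0.997), C12orf5 (0.996), BCL2L1 (0.996), BTG2 (0.996) and FAS (0.995). FAS, a death receptor, and BTG2, an antiproliferative gene, are known p53 targets, as is C12orf5, now named TIGAR, a regulator of glycolysis. BTG2, for one, averaged 4.72 and 5.05 FPKM in the KO line and 83.3 and 24.1 in the WT line, with SET and control siRNA in that order. For SESN2 they were GREB1 (0.997), TPP1 (0.995), SETD5 (0.993), RUSC2 (0.992) and BSDC1 (0.992). TPP1 is a lysosomal peptidase, and it averaged 57.2 and 40.6 FPKM in the KO line and 86.8 and 49.7 in the WT line, in the same order.

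For SESN3 the most alike were TNKS2, a tankyrase (r = 0.992), ZNF323 (0.986), FAM55C (0.982), SPAST, a microtubule-severing enzyme (0.982), and FAM69A (0.981). TNKS2 averaged 12 and 23.5 FPKM in the KO line and 11.9 and 15.2 in the WT line, with SET and control siRNA in that order. DDIT4 had no gene as close: its highest were APOBEC3F (0.875), LOC100506214 (0.794), IRGQ (0.783), DUSP22 (0.779) and TOM1L2 (0.763). Among the members, SESN1 and SESN2 had r = 0.745, SESN2 and SESN3 -0.83, SESN1 and SESN3 -0.563, and DDIT4 had 0.286, 0.352 and 0.066 with SESN1, SESN2 and SESN3.

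Other genes of the pathway and partners of the members spanned -0.78 to 0.99 on the log2 scale in the WT response and -0.54 to 0.76 in the KO response. The list of 71 genes holds mTORC1, its regulators and its outputs, the related complex mTORC2, and partners of sestrins and DDIT4. The partner TXNIP sets the upper end in the WT response. Of the 71 genes, 67 were tested. In the WT response 25 were higher and 12 lower, 55.2% of the list against 54.8% of all tested genes, with a median change of 0.07 against 0.04. In the KO response 17 were higher and 9 lower, 38.8% against 37.6% (median 0.08 against 0.02). The difference of responses was positive for 8 and negative for 2, 14.9% against 19.1%. For KO against WT, 17 were higher and 15 lower with SET siRNA, 47.8% against 48.4%, and 22 were higher and 16 lower with control siRNA, 56.7% against 47.9%. Some of these counts rest on single libraries. The KO response had 17 or 15 called without KO SET siRNA library 1 or 2. KO against WT had 24 called with control siRNA without KO control library 2, and 21 with SET siRNA without KO SET siRNA library 2. The difference of responses had 3 to 25, with 25 without KO control library 1, 6 without WT control library 1 or KO control library 2, 5 without WT SET siRNA library 1 or 2, and 3 or 5 without KO SET siRNA library 1 or 2.

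Sestrins bind GATOR2. Of 6 genes of GATOR2 and arginine sensing 1 was higher and 3 lower in the WT response. That is 66.7% of the list, against 54.8% of all tested genes. In the KO response 2 were higher and 1 lower, 50% against 37.6%. MIOS was lower in both responses (-0.20 in WT, limma adjusted p = 0.0159, and -0.32 in KO, 0.00614). SEH1L (-0.29, 0.00192) and GATSL3 (-0.31, 0.038) were the others lower in the WT response. The WT call of MIOS was lost without WT control library 2 (0.0504). That of GATSL3 was lost without library 1 or 2 of either WT group (adjusted p from 0.0842 to 0.113). WDR59, a GATOR2 subunit, averaged 21.0 and 18.7 FPKM in the KO line and 34.4 and 27.0 in the WT line, with SET and control siRNA in that order. It rose by 0.34 in the WT response (limma adjusted p = 7.17e-05) and was lower in the KO line by -0.68 with SET siRNA (2.11e-06) and -0.51 with control siRNA (2.12e-05). Its KO change was 0.16 (0.0222), a call lost without KO control library 2 (0.0701) or without KO SET siRNA library 1 (0.0986) or 2 (0.0903). Of 7 genes of GATOR1, the brake on the Rag GTPases, and of KICSTOR, its scaffold, 3 were called in each response, each time higher. That is 42.9% of the list, against 54.8% of all tested genes in the WT and 37.6% in the KO response. Of 10 Rag and Ragulator genes, 5 were higher and 3 lower in the WT response, 80% against 54.8% of all tested genes. In the KO response 2 were higher and 2 lower, 40% against 37.6%. RRAGC, a Rag GTPase, rose by 0.52 in the WT line (adjusted p = 1.04e-05) and 0.34 in the KO line (0.000864).

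AMPK, which sestrins activate, had 2 of 9 tested subunit and LKB1-complex genes higher in the WT response, both of them beta subunits, which is 22.2% of the list against 54.8% of all tested genes. In the KO response 1 was higher and 2 lower, 33.3% against 37.6%. The lower ones were STRADA, a pseudokinase partner of LKB1 (-0.24, limma adjusted p = 0.0264), and CAB39, its scaffold (-0.22, 0.029). Leaving out KO control library 1, or either KO library with SET siRNA, ended the STRADA call (adjusted p from 0.0928 to 0.119). Leaving out KO control library 2 (0.154) or the first KO library with SET siRNA (0.178) ended that of CAB39. PRKAB1 averaged 19.1 and 14.8 FPKM in the KO line and 28.8 and 17.4 in the WT line, with SET and control siRNA in that order, and rose in both lines (0.69 in WT, limma adjusted p = 1.68e-06; 0.35 in KO, 0.00067). PRKAB2 averaged 21.5 and 21.0 FPKM in the KO line and 38.2 and 21.7 in the WT line in the same order. Its change was 0.79 in the WT line (adjusted p = 5.45e-06) and 0.03 in the KO line (0.73), and the responses differed by 0.76 (0.00107). In the TSC list of 5 genes, through which DDIT4 acts, 2 were higher in the WT response, 40% against 54.8% of all tested genes. They were RHEBL1, a RHEB-like GTPase, at 0.51 (0.00165) and TSC1 at 0.30 (0.000488). In the KO response 1 was higher, 20% against 37.6%. TXNIP, a thioredoxin inhibitor that binds DDIT4, was higher in the KO line by 1.19 with control siRNA (1.08e-06) and rose by 0.99 in the WT response (1.15e-06).

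Of the 5 mTORC1 subunits 1 was higher in each response. That is 20% of the list, against 54.8% of all tested genes in the WT and 37.6% in the KO response. The called subunit was the scaffold RPTOR, at 0.40 in the WT line (limma adjusted p = 0.00251) and 0.30 in the KO line (0.0383). The KO call was lost without any 1 of KO control library 2, KO SET siRNA library 1 or 2, and WT SET siRNA library 1 or 2 (adjusted p from 0.0521 to 0.214). Among 8 output genes 3 were called in each response, all higher. That is 37.5% of the list, against 54.8% of all tested genes in the WT and 37.6% in the KO response. The 3 genes were ULK1, the autophagy kinase, EIF4EBP1, a translation repressor, and LPIN1, a regulator of lipid synthesis. These are mRNA levels, and mTORC1 activity was not measured. ULK1 changed by 0.52 in both lines, EIF4EBP1 by 0.48 in the WT and 0.52 in the KO line, and LPIN1 by 0.36 and 0.38. IRS1, the insulin receptor substrate, fell by 0.78 in the WT line (1.97e-05) and by 0.47 in the KO line (0.00249). It is in the list of PI3K and AKT genes, of which 8 were tested. In the WT response 3 of them were higher and 5 lower, 100% against 54.8% of all tested genes. In the KO response 1 was higher and 4 lower, 62.5% against 37.6%.

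**Figure D4:**
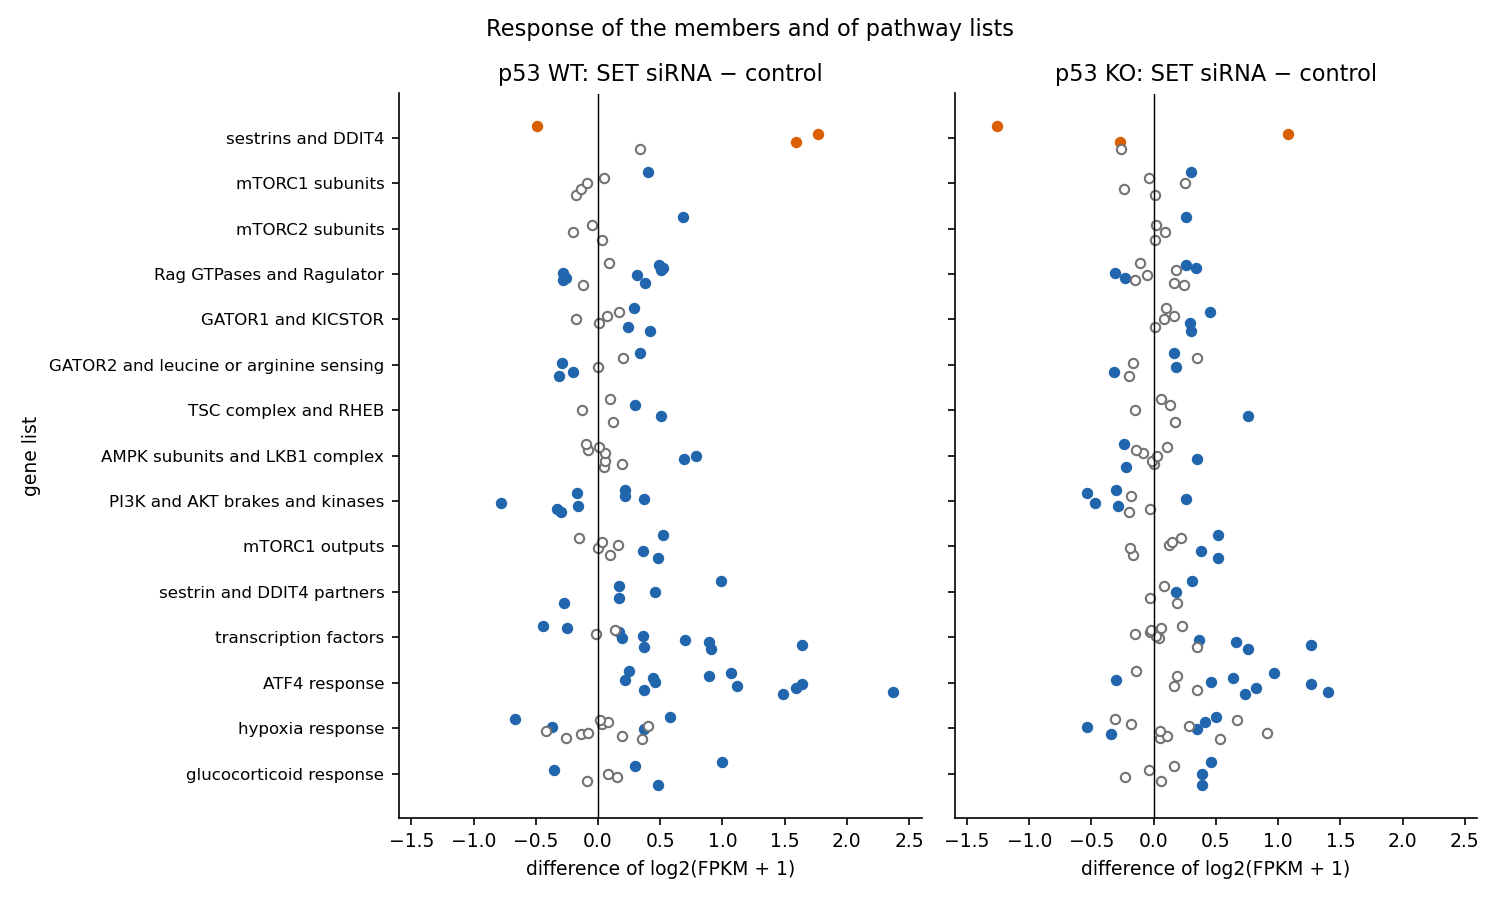
Difference of log2(FPKM + 1), SET siRNA minus control siRNA, for the members and the genes of each list, in the WT line (left) and the KO line (right); 1 point per gene, filled (members orange, other genes blue) where adjusted p is below 0.05 and open grey where not, with height within a row only spreading the points. SESN1 and SESN2 at 1.59 and 1.77 in the WT line, and SESN2 and SESN3 at 1.08 and -1.26 in the KO line, lie outside the range of the 67 genes in the rows from mTORC1 subunits to partners (-0.78 to 0.99 in WT, -0.54 to 0.76 in KO).

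Of 12 tested transcription factors known to act on sestrins or DDIT4, 8 were higher and 2 lower in the WT response. That is 83.3% of the list, against 54.8% of all tested genes. In the KO response 4 were called, all higher, 33.3% against 37.6%. ATF4 mRNA averaged 704 and 415 FPKM in the KO line and 691 and 368 in the WT line, with SET and control siRNA in that order. It rose by 0.91 in the WT line (limma adjusted p = 5.2e-07) and 0.76 in the KO line (1.13e-05), and the difference of 0.15 did not pass (0.127). Of 12 ATF4 response genes 12 were higher in the WT response (median 0.98), where 30.8% of all tested genes were. In the KO response 7 were higher and 1 lower (median 0.55), where 19.8% and 17.9% of all tested genes were. The lines also differed in the level of these genes. Under control siRNA the KO line had 9 of the 12 higher than the WT line and 1 lower (median 0.46). Under SET siRNA it had 5 higher and 3 lower (median 0.08). These calls were 83.3% and 66.7% of the list, where 47.9% and 48.4% of all tested genes were called. The difference of responses was called for 8 of the 12, all positive, which is 66.7% against 19.1% of all tested genes. Among them ASNS, asparagine synthetase, changed by 1.49 and 0.73. FOXO1, a factor that acts on SESN3, rose by 0.70 in the WT line (4.82e-05) and 0.36 in the KO line (0.0124). SESN3 fell in both lines. With control siRNA, FOXO1 was higher in the KO than in the WT line by 0.45 (0.00175) and FOXO4 by 0.43 (0.00141). SESN3 was higher there too, by 0.91. Whether FOXO factors had a part in the level of SESN3 was not tested. The values are of mRNA and do not measure the activity of a factor. The KO call of FOXO1 had an adjusted p of 0.055 with KO control library 1 left out and 0.0713 with KO SET siRNA library 2 left out.

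HIF1A, a hypoxia factor that acts on DDIT4, changed by -0.02 in the WT line (limma adjusted p = 0.777) and -0.15 in the KO line (0.0806). EPAS1, another hypoxia factor among the listed transcription factors, rose by 0.89 in the WT line (limma adjusted p = 2.81e-06) and 0.66 in the KO line (0.000126). These are mRNA levels, and whether either factor acted on DDIT4 here was not tested. Of 14 hypoxia genes 2 were higher and 2 lower in the WT response, 28.6% against 54.8% of all tested genes. In the KO response 3 were higher and 2 lower, 35.7% against 37.6%. VEGFA, an angiogenic growth factor, rose by 0.58 in the WT and 0.50 in the KO line. The largest called change of the list was a fall in each response. It was that of SLC2A1 in the WT response (-0.67, limma adjusted p = 0.00224) and of LOX in the KO response (-0.54, 7.64e-05). LOX was also lower in the WT response (-0.37, 8.98e-05). Glucocorticoids also act on DDIT4. Of 7 tested glucocorticoid response genes 5 were called in the KO against the WT line with control siRNA, all higher, with FKBP5, a chaperone of the receptor, at 0.98 (6.66e-07). That is 71.4% of the list, against 47.9% of all tested genes called and 25.7% higher. With SET siRNA 5 were higher and 1 lower in the KO than in the WT line, 85.7% against 48.4%. In the KO response 3 were called, all higher, 42.9% against 37.6%. In the WT response 3 were higher and 1 lower, 57.1% against 54.8%, and TSC22D3, a leucine zipper protein also called GILZ, rose by 1.00 (1.55e-06).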

How the data were processed

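RNA sequencing of 10 libraries was deposited as 1 file per library. FPKM values and their intervals were computed by the authors, per the file headers. The submitters' processing notes name bcl2fastq 1.8.4, TopHat2 2.0.4 and Cufflinks 2.0.2. For the build, annotation, strand setting and depth in fragments: not given in the sources used here. The printed gene coordinates are those of the files, counted from 1, and RefSeq windows are on GRCh38.p14. FPKM divides by the library's total, so a change in abundant transcripts moves all other values.

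Here a gene was tested if 2 or more libraries had an FPKM of 1 or more; 14813 genes passed, all 4 members among them, and 10780 did not. Values were log2(FPKM + 1). One linear model of 4 group means over the 10 libraries (limma 3.58.1, R 4.3.3, eBayes with trend) was used, and a Benjamini-Hochberg adjusted p below 0.05 over all tested genes, two-sided, made a call. Every adjusted p is from limma. The fit was tested on simulated data for both SET siRNA responses and for the lines with control siRNA. Python 3.11.15 with numpy 2.4.6, pandas 2.3.3 and matplotlib 3.10.9 did the rest.

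Named genes are the members, SET, at most 4 called genes per list by size of change, and the 5 genes most correlated with each member, small RNAs left out; some genes the rule names are not reported here. HIF1A, which no call names, was added after its values were seen, for its known link to DDIT4. Members and lists were chosen with earlier results of these data known. Alternatives were a pseudocount of 0.1, no filter, a minimum FPKM of 5, quantile or median-of-ratios scaling, fitting the compared libraries alone, a replicate block, no trend, array weights, and leaving out each library.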

Additional observations from a re-analysis of the deposited data

Results flagged for a closer look

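For 3 of the 4 members the interaction term in limma differed from 0, so that SET siRNA moved them by unlike amounts in the WT and KO lines. The WT response minus the KO response was 1.86 on the log2 scale for SESN1, which rose in the 3 WT libraries with SET siRNA and not in the KO line. It was 0.69 for SESN2, which rose in both lines and more in the WT line, and 0.77 for SESN3, which fell in both lines and less in the WT line. Of all tested genes 19.1% had such a difference.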

How the results depend on the processing

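Of 376 values of the members under an alternative, 362 kept direction and call, 4 lost a call, 10 gained one and 0 reversed. Of 3635 values of other named genes, 266 lost a call and 0 reversed. SESN1 in the KO response was -0.27 with array weights (limma adjusted p = 0.0673) and -0.27 on the compared libraries alone (0.0981). DDIT4 in the WT response gained a call under quantile normalization (0.36, 0.0399) and array weights (0.39, 0.0256), and KO minus WT with SET siRNA did on the compared libraries (-0.30, 0.0299). The KO response had 3631 genes and 11 pathway genes called on the compared libraries, and 6 pathway genes had a called difference of responses without the trend. The sestrin sum averaged 51.3 (KO) and 122 (WT) FPKM with SET siRNA under median-of-ratios scaling. The cause was not tested.

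With 1 library left out, DDIT4 ranged from 0.25 to 0.51 in the WT response, 0.50 to 0.77 in the difference of responses, 0.20 to 0.47 for KO minus WT with control siRNA and -0.36 to -0.21 with SET siRNA, and SESN1 in the KO response from -0.35 to -0.20. Genes called ranged from 3442 to 5816 in the KO response and 1136 to 4587 in the difference of responses. Pathway genes called ranged from 15 to 31 in the KO response, 3 to 25 in the difference, 24 to 41 for KO minus WT with control siRNA and 21 to 35 with SET siRNA. Where 1 library remained, it was assumed to vary like the other groups.

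With the replicate block, DDIT4 was called at 0.34 in the WT response (0.00981), 0.60 in the difference of responses (0.0203) and -0.35 for KO minus WT with SET siRNA (0.0203). Libraries of the same number had correlations of deviations from -0.083 to 0.073 within a line, 0.044 and 0.067 between the lines with SET siRNA, and 0.217 and 0.228 with control siRNA. Between the WT groups, 2 of the 6 libraries correlated best with their own number. The labels do not say what a number marks, so the libraries were not taken as paired. With the block 8472 against 8117 genes were called in the WT response, 6027 against 5571 in the KO response and 3400 against 2831 in the difference of responses. With 2 libraries a group in the KO line and no fragment totals, small changes there, and of SESN1 at its low level in particular, are the least certain.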
